A study of Rattus norvegicus with 6 samples.

Results

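Homeobox genes of kidney patterning were compared in rat glomerular isolates enriched in or deprived of PECs. Parietal epithelial cells (PECs) line Bowman's capsule, the cup around the glomerular tuft. The genes were the members of the Hoxa, Hoxb, Hoxc and Hoxd clusters and of the Irx, Lhx, Emx, Pou3f and Six-type families whose symbol carries a number after the family name. Every probeset annotated with exactly 1 such symbol was taken, which gave 44 genes on 44 of the 29215 probesets of the array, 1 probeset for each gene. There were 22 Hox genes (5 Hoxa, 7 Hoxb, 4 Hoxc and 6 Hoxd) and 22 others (6 Irx, 8 Lhx, 1 Emx, 3 Six-family and 4 Pou3f). Within these families the genes were taken by name and not by a measured value, although the families were chosen with earlier results of these data known. Members of these families without such a probeset were not analysed here.

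RNA came from the kidney cortex of adult male Sprague-Dawley rats, for which no engineered allele and no agent is named, and nothing was cultured. The 3 PEC-enriched isolates were fractions enriched in capsulated glomeruli, retained on a sieve of 90 µm. The 3 PEC-deprived isolates were fractions of mostly decapsulated glomeruli, collected on a sieve of 75 µm. By the paper's counts, the PEC-enriched fractions also held tubular fragments and decapsulated glomeruli, the latter in shares that varied widely between fractions. Some PEC-deprived fractions held a few capsulated glomeruli. The share of tubular fragments was highest of all in a PEC-deprived fraction and lowest in the other PEC-deprived fractions. Each isolate was hybridised to 1 Affymetrix whole-transcript rat array. Sieving enriched for capsulated or decapsulated glomeruli and purified no cell type, so the comparison is between mixed fractions that hold several cell types. In such bulk RNA, fewer cells of a type and less RNA per cell cannot be told apart. The methods describe preparations from individual rats and count 3 animals, whereas 6 isolates were arrayed, and do not say whether both fractions came from the same animals.

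Homeobox genes encode transcription factors that bind DNA through a homeodomain, and many of them set regional identity in the embryo. Hox genes lie in clusters, and their order along the chromosome follows the order of their domains along the body axis, so a low position number marks an anterior gene and a high one a posterior gene. In kidney development, *Emx2* and *Lhx1* are needed in the epithelium of the ureteric bud, Hox genes of position 11 are needed for the mesenchyme to induce that bud, and Irx and *Pou3f3* are known from the patterning of nephron segments. Many Hox genes stay active in adult tissues, where their pattern reflects position in the body.

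RefSeq promoter sequences of the GRCr8 assembly were at hand for 26 of the 44 genes, 11 Hox genes and 15 others, and were read over the 250 bases before the annotated start. *Emx2* was not among them. The sequences printed here are those of *Lhx1*, which had the smallest p of the genes with a sequence, and of *Hoxd10*, *Hoxc4* and *Hoxd4*. These last 3 are the genes whose window holds the motif AGGTCA on either strand. AGGTCA is only part of a retinoic acid receptor site, so its presence alone does not mark such a site. Retinoic acid is a known inducer of Hox genes. Capitals mark letters of a searched motif, here TGACCT, which is AGGTCA as read on the other strand. They also mark ATTGG, the CCAAT box as read on the other strand.
*Lhx1* (chr10:69901077-69901326, minus strand): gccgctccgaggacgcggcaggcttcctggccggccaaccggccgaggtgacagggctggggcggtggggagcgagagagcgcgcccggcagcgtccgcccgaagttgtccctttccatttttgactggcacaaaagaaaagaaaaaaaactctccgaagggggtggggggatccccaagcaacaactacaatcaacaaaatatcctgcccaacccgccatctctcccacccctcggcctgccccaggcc
*Hoxd10* (chr3:80001697-80001946, plus strand): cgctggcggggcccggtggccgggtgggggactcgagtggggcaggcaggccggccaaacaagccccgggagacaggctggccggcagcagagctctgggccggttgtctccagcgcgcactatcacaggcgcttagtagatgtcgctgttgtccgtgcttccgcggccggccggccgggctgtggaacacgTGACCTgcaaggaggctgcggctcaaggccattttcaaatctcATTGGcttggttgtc
*Hoxc4* (chr7:136048809-136049058, plus strand): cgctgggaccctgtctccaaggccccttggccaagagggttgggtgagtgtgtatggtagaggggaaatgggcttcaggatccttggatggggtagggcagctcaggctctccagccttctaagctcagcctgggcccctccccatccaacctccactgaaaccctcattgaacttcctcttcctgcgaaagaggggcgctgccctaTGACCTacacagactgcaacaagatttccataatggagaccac
*Hoxd4* (chr3:80021636-80021885, plus strand): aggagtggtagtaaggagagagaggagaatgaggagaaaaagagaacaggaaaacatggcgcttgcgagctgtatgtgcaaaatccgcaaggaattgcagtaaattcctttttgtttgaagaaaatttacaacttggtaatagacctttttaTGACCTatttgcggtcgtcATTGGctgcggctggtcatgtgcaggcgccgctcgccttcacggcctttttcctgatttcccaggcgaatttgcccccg

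The AGGTCA motif starts at -58 from the start of *Hoxd10*, -43 from that of *Hoxc4* and -98 from that of *Hoxd4*. ATTGG starts at -15 in *Hoxd10* and -79 in *Hoxd4*. None of the 5 motifs searched lies in the *Lhx1* window. The AGGTCA motif was present in 3 of the 26 windows (11.5%), all of them Hox genes (27.3% of 11). It was present in 13.7% of 27457 rat promoter windows of the same length. The homeodomain core TAATTA was in 0 of 26 windows (4.94% of all), the Pbx-Hox site TGATNNAT in 1 (7.75% of all), the TATA box TATAAA in 1 (13.1% of all) and CCAAT in 12 (46.2%, against 34.3% of all). The windows were rich in G and C, with a median of 63% against 52% in all promoters. The ratio of observed to expected CpG was above 0.6 in 20 of 26 (76.9%) and in 35.4% of all, so most of these genes start in CpG-rich sequence. Letters that match a motif describe the sequence and do not show a bound site.

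Apart from *Emx2*, the differences between the isolates were small in these genes and lay between -0.20 and 0.41 on the log2 scale. No gene passed limma's test at 0.01 after adjustment over all probesets, the level that the methods set. Neither did any other probeset, so the share called by limma over all probesets was 0%. At an unadjusted p under 0.05, 3 genes were higher in the PEC-enriched isolates (*Emx2*, *Lhx1* and *Hoxc9*) and 0 were lower, beside 5.77% of all probesets higher and 4.66% lower. The regularised Bayesian test is a second test that borrows variance from probesets of similar level. It called 0 of the 44 genes and 0.123% of all probesets. At the same adjusted level the paper reports many more genes called by its own Bayesian test, *Emx2* among them. The low counts here thus do not mean that the study found no difference. Why the counts are lower here was not tested. The differences, given throughout as PEC-enriched minus PEC-deprived on the log2 scale, were positive in 25 genes and negative in 19. Their median was 0.03, and the median over all probesets was -0.03.

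The intervals bound how large a difference these arrays leave room for. The 95% interval of the difference, not adjusted for the number of genes, lay within 1 of zero on the log2 scale for 43 of the 44 genes, *Emx2* being the exception, and for 96.4% of all probesets. It lay within 0.5 for 36 of the 44 (81.8%) and for 76.8% of all probesets. All 3 PEC-enriched values were above all 3 PEC-deprived values in 3 genes (*Emx2*, *Lhx1* and *Hoxd3*) and below them in 1 (*Lhx6*), while 7.24% of all probesets were separated upward and 7.79% downward. With 3 arrays against 3, the smallest p of an exact permutation test is 0.1, so separation of the groups alone cannot pass a threshold of 0.05. The mean level of 17 genes lay above the median of all probesets, and none of these 17 was separated. Detection calls were not used here, so it is unknown which of the 44 genes were above background.

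**Figure D1:**
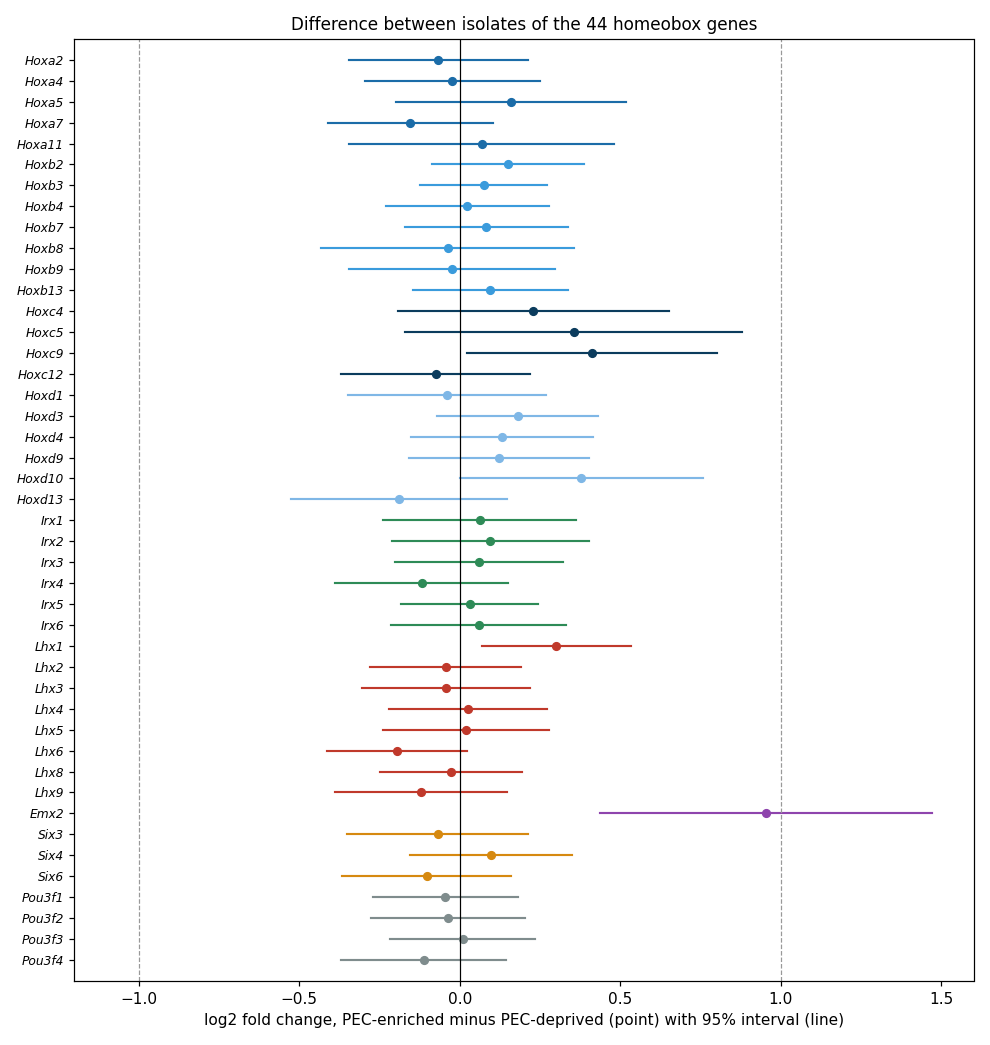
Log2 fold change, PEC-enriched minus PEC-deprived, of the 44 homeobox genes (points) with limma's 95% interval (lines), coloured by cluster or family, with dashed lines at -1 and 1. The interval lies within the dashed lines in 43 genes, and that of *Emx2* runs from 0.44 to 1.47.

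*Emx2* had the largest difference of the 44 genes, at a mean level below the median of all probesets. This homeobox factor of the urogenital epithelium and forebrain measured 6.13, 6.82 and 6.07 on the PEC-enriched arrays and 5.45, 5.06 and 5.66 on the PEC-deprived arrays, in log2 RMA units. The lowest PEC-enriched value was above the highest PEC-deprived value. The means were 6.34 ± 0.42 and 5.39 ± 0.30 (SD, n = 3 each), a difference of 0.95 ± 0.22 (SE) or 1.94-fold. The adjusted p of limma was 0.21. The adjusted p was 0.0436 by the regularised Bayesian test and lay between 0.0436 and 0.491 over all settings tried, so it did not pass 0.01 in any setting run here. Leaving out any array kept the difference between 0.71 and 1.09. *Emx2* also stands in the table of genes that the study itself called on these same arrays, so its direction is not independent evidence.

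The array with the highest *Emx2* value, PEC-enriched replicate 2, also had the highest mean level of the parietal epithelial markers and of the proximal tubule markers, 0.84 and 0.93 above their means over all 6 arrays. The array with the lowest *Emx2* value, PEC-deprived replicate 2, had the lowest level of both lists, at -0.77 and -1.02. The other arrays followed less closely. Of the PEC-deprived arrays, *Emx2* was highest on replicate 3. Both lists were higher on replicate 1 (-0.25 and 0.15) than on replicate 3 (-0.49 and -0.49). On the PEC-enriched arrays *Emx2* was lowest on replicate 3, as were the proximal tubule markers (0.12), whereas the parietal markers were lowest on replicate 1 (0.21). Markers of the thick ascending limb, distal convoluted tubule and collecting duct were instead highest on PEC-enriched replicate 1, at 1.32, 1.04 and 0.28 against 0.84, 0.52 and 0.20 on replicate 2, and were also lowest on PEC-deprived replicate 2. The part of these cell types in the *Emx2* difference was not tested.

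Among the 8 Lhx genes, which encode LIM homeodomain factors, *Lhx1* had the highest difference between isolates. *Lhx1*, needed for the ureteric bud and for the early nephron, measured 5.72, 5.67 and 5.54 on the PEC-enriched arrays and 5.47, 5.27 and 5.28 on the PEC-deprived arrays. The groups were separated by a gap that was small beside that of *Emx2*. The means of 5.64 ± 0.09 and 5.34 ± 0.11 (SD, n = 3 each) differed by 0.30 ± 0.10 (SE), with an adjusted p of 0.345 by limma. *Lhx6*, known from the migration of cortical interneurons, was the only one of the 44 genes with every PEC-enriched value below every PEC-deprived value. It measured 6.46, 6.34 and 6.55 against 6.69, 6.57 and 6.67, a difference of -0.20 ± 0.095 (SE, adjusted p = 0.548). The other 6 Lhx genes differed by -0.12 to 0.03, and the median of the family was -0.03. Of the 8 Lhx genes, 1 was thus separated upward and 1 downward, beside 7.24% and 7.79% of all probesets. Neither passed the adjusted threshold, and 0 of the 8 had a mean level above the median of all probesets.

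The Hoxc cluster had the highest median of the 4 Hox clusters, 0.29 over 4 genes, with standard errors from 0.13 to 0.23. That rank rested on PEC-deprived replicate 3, without which the median was 0.07 in Hoxc and 0.11 in Hoxd. *Hoxc9*, which specifies thoracic identity in the spinal cord, measured 8.08, 8.38 and 7.90 on the PEC-enriched arrays and 7.60, 8.02 and 7.50 on the PEC-deprived arrays. In both groups replicate 2 was the highest, and PEC-deprived replicate 2 lay above PEC-enriched replicate 3. The difference was 0.41 ± 0.17 (SE), with an adjusted p of 0.444 by limma. *Hoxc5* measured 8.61, 8.56 and 8.23 against 8.20, 8.54 and 7.59, a difference of 0.35 ± 0.23. *Hoxc4* measured 8.76, 8.46 and 8.31 against 8.37, 8.56 and 7.91, a difference of 0.23 ± 0.18. Without PEC-deprived replicate 3 these differences were 0.09 in *Hoxc5* and 0.04 in *Hoxc4*. In both genes PEC-deprived replicate 3 was the lowest of the 6 arrays and PEC-deprived replicate 2 lay within the range of the PEC-enriched arrays. *Hoxc6* spans *Hoxc4* and *Hoxc5* in the annotation, so signal of these overlapping genes may not be separated by their probesets. *Hoxc12*, the most posterior of the 4, measured 5.76, 5.80 and 5.97 against 5.98, 5.68 and 6.09, a difference of -0.08 ± 0.13.

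In the Hoxd cluster the median was 0.13 over 6 genes. *Hoxd10*, of the paralog group known from the patterning of the kidney stroma, measured 8.02, 8.53 and 8.07 on the PEC-enriched arrays and 7.76, 7.66 and 8.07 on the PEC-deprived arrays. PEC-enriched replicate 2 stood above the other arrays, and PEC-deprived replicate 3 reached the level of the remaining PEC-enriched arrays. The difference of 0.38 ± 0.16 (SE, adjusted p = 0.481 by limma) was 0.22 without PEC-enriched replicate 2. *Hoxd3*, a gene of the cervical axis, measured 6.50, 6.80 and 6.51 against 6.38, 6.49 and 6.40. Its groups were separated, by a gap far smaller than the spread within the PEC-enriched arrays, and differed by 0.18 ± 0.11 (SE, adjusted p = 0.671), or by 0.08 without PEC-enriched replicate 2. *Hoxd4* measured 7.75, 7.68 and 7.38 against 7.46, 7.59 and 7.35, a difference of 0.13 ± 0.12. *Hoxd13*, a gene of digits and genitalia at the posterior end, measured 5.63, 5.68 and 6.11 against 6.06, 5.83 and 6.10, a difference of -0.19 ± 0.15. The highest value of *Hoxd13* was thus on a PEC-enriched array although its mean was lower there. *Hoxd1* and *Hoxd9* differed by -0.04 and 0.12.

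The Hoxa and Hoxb clusters lay close to zero, with medians of -0.02 and 0.07. *Hoxa5*, known from lung and axial development, measured 10.19, 10.12 and 9.88 on the PEC-enriched arrays and 9.93, 10.18 and 9.61 on the PEC-deprived arrays, a difference of 0.16 ± 0.16 that was 0.012 without PEC-deprived replicate 3. *Hoxa7* measured 7.79, 7.76 and 7.71 against 7.70, 8.0 and 8.03, a difference of -0.15 ± 0.11. These were the highest and the lowest differences of the Hoxa genes, and in both the groups overlapped. *Hoxa11*, whose paralog group is needed for the metanephric kidney to form, measured 6.71, 6.77 and 6.62 against 6.84, 6.19 and 6.87, with PEC-deprived replicate 2 alone below the other 5 arrays. Its difference was 0.07 ± 0.18. *Hoxb2*, a gene of the hindbrain, measured 5.47, 5.49 and 5.64 against 5.52, 5.28 and 5.33 and had the highest difference of its cluster, 0.15 ± 0.10. *Hoxb8* measured 6.15, 5.75 and 6.40 against 6.11, 5.97 and 6.32 and had the lowest, -0.04 ± 0.17. *Hoxb7*, whose promoter is widely used to mark the ureteric bud and collecting duct, differed by 0.08 ± 0.11.

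Grouped by position along the cluster, the Hox genes had nearly the same medians. The median was 0.07 over the 9 genes of positions 1 to 4, 0.08 over the 5 genes of positions 5 to 8 and 0.08 over the 8 genes of positions 9 to 13. Position 4 was measured in all 4 clusters, and its paralogs differed between isolates by -0.02 for *Hoxa4*, 0.02 for *Hoxb4*, 0.23 for *Hoxc4* and 0.13 for *Hoxd4*. At position 9 the differences were -0.02 for *Hoxb9*, 0.41 for *Hoxc9* and 0.12 for *Hoxd9*. Differences between paralogs were not tested.

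**Figure D2:**
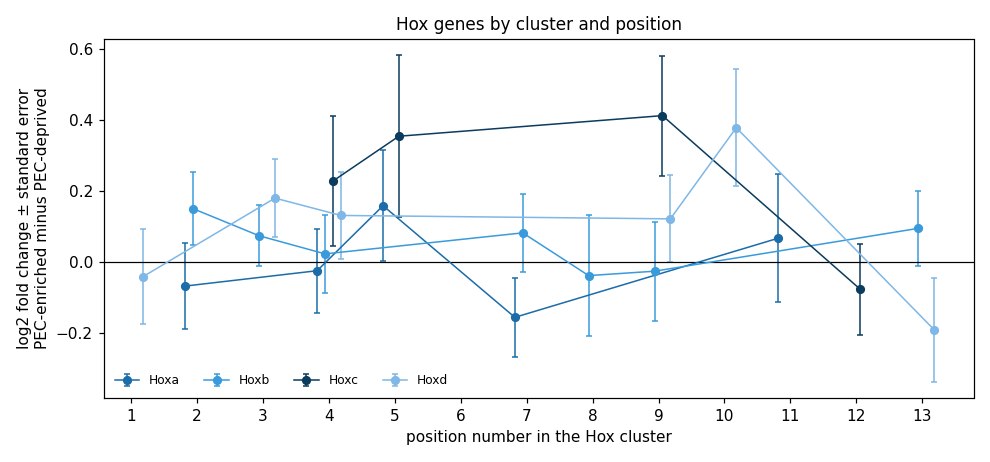
Log2 fold change ± standard error of the 22 Hox genes by position number, with a line for each cluster (points shifted sideways so that clusters do not hide each other). *Hoxc4*, *Hoxc5*, *Hoxc9* and *Hoxd10* lie highest, between 0.23 and 0.41, 8 of the 22 genes at low, middle and high positions lie below zero, and the medians of positions 1 to 4, 5 to 8 and 9 to 13 are 0.07, 0.08 and 0.08.

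The Irx, Pou3f and Six-family genes all lay close to zero. The 6 Irx genes, among them *Irx1*, *Irx2* and *Irx3* of the intermediate nephron, differed by -0.12 to 0.10 with a median of 0.06. The 4 Pou3f genes differed by -0.11 to 0.01 with a median of -0.04. *Pou3f3*, needed for the loop of Henle, measured 7.40, 7.35 and 7.52 against 7.44, 7.30 and 7.51, a difference of 0.01 with a 95% interval from -0.22 to 0.24. The thick ascending limb markers differed by 0.30 to 2.88 with a median of 2.13, and whether *Pou3f3* follows that segment was not tested. The 3 Six-family genes, *Six3*, *Six4* and *Six6*, differed by -0.10 to 0.10 with a median of -0.07. *Six3* and *Six6* are known from eye and forebrain. In each of these 13 genes the groups overlapped.

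**Figure D3:**
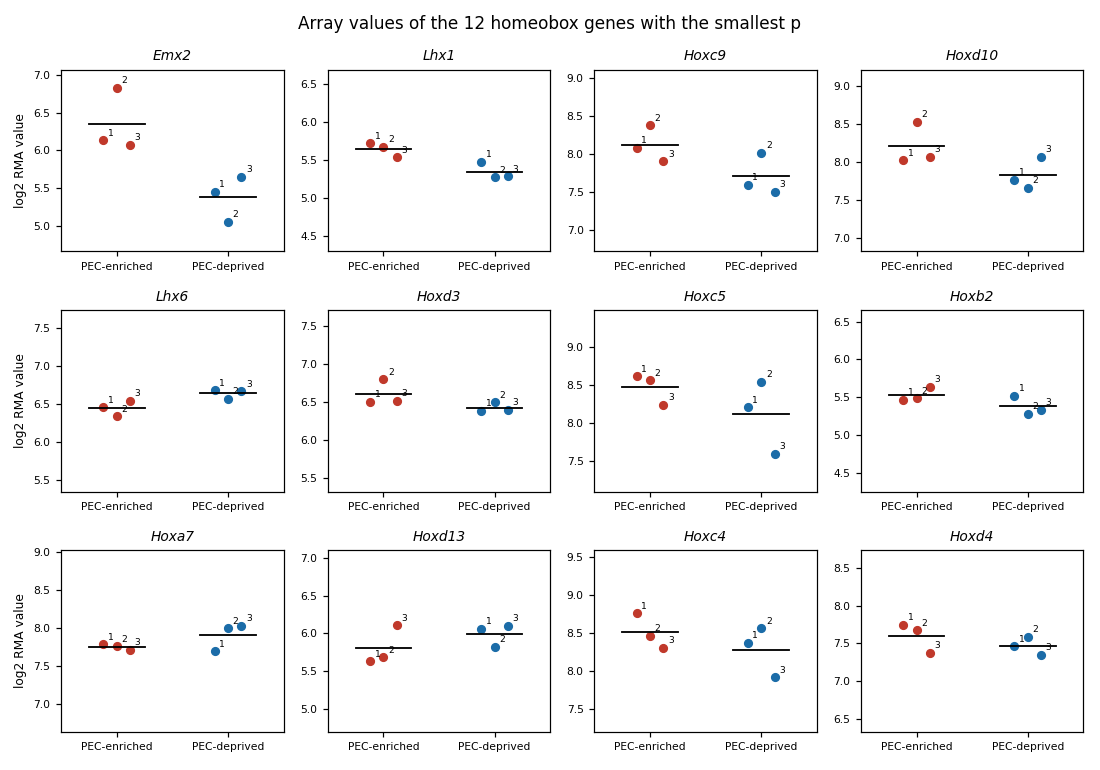
Log2 RMA value of the 12 homeobox genes with the smallest p on each of the 6 arrays (points numbered by replicate, bars at group means), with an axis of its own for each gene. *Emx2*, *Lhx1* and *Hoxd3* have all PEC-enriched points above the PEC-deprived points, *Lhx6* has all below, and the groups overlap in the other 8.

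Arrays of the same group differed from each other in ways that many of these genes shared. Replicate 2 was the lowest array in both groups in 17 of the 44 genes (38.6%), against 15.4% of all probesets and 20.8% of probesets at or below the median level. It was found in 13 of the 22 genes outside the Hox clusters (59.1%), including all 3 Six-family genes, and in 4 of 22 Hox genes (18.2%). The difference between these sets was not tested, and their levels differ, with 4 of the 22 others and 13 of the 22 Hox genes above the median level. Whether both arrays called replicate 2 share an animal is unknown, and the count describes 1 array in each group. Among the Hox genes another order recurred, which was picked out after the values were seen. *Hoxa2*, *Hoxa5*, *Hoxc4*, *Hoxc5* and *Hoxd4* were highest on PEC-enriched replicate 1 and lowest on replicate 3, and on the PEC-deprived arrays highest on replicate 2 and lowest on replicate 3. These are 5 of 22 Hox genes (22.7%), all at positions 2 to 5, where 5 other Hox genes did not have them, and 3.90% of all probesets (5.63% of those above the median level) had these orders. Of the TALE cofactors of Hox proteins, 3 of 9 (*Meis1*, *Meis2* and *Pknox1*) had the same orders, and of the other partner and marker lists none had any such gene. Genes on 1 array share its RNA, so these counts are not independent, and what moved with the arrays was not tested.

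**Figure D4:**
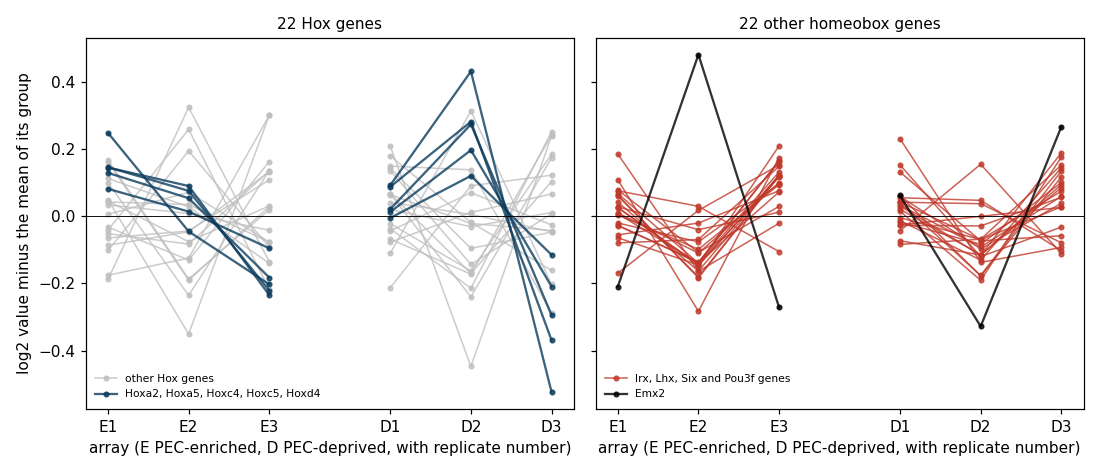
Log2 value minus the mean of its own group on each array (E, PEC-enriched and D, PEC-deprived, with the replicate number) for the 22 Hox genes on the left and the 22 other homeobox genes on the right; a line joins the values of 1 gene. *Hoxa2*, *Hoxa5*, *Hoxc4*, *Hoxc5* and *Hoxd4* (dark lines) are lowest on E3 and D3, and most Irx, Lhx, Pou3f and Six-family genes are lowest on E2 and D2, whereas *Emx2* (black) is highest on E2.

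Among the analysed partners of these factors, no gene passed the adjusted threshold by limma or by the regularised Bayesian test. Those with an unadjusted p under 0.05 were lower in the PEC-enriched isolates. TALE homeodomain proteins bind DNA together with Hox proteins. Of 9 analysed (of 11 listed), 0 were higher and 2 were lower at an unadjusted p under 0.05, beside 5.77% and 4.66% of all probesets, and the median was -0.05. *Meis2* measured 11.03, 10.55 and 10.36 on the PEC-enriched arrays and 11.03, 11.15 and 10.94 on the PEC-deprived arrays, so PEC-enriched replicate 1 overlapped the other group. Its difference was -0.39 ± 0.17 (SE, adjusted p = 0.466 by limma), that of *Pbx3* was -0.26 ± 0.11 and that of *Tgif1*, the highest, was 0.17 ± 0.11. The LIM homeodomain partners, which bridge or compete for Lhx proteins, counted 0 higher and 3 lower among 7 analysed (of 9), with the same shares of all probesets beside them and a median of -0.14. *Lmo2*, also a factor of blood and endothelial cells, measured 9.06, 8.84 and 8.72 against 9.24, 9.39 and 9.37. Its groups were separated, with a difference of -0.46 ± 0.11 (SE, adjusted p = 0.225), beside -0.42 ± 0.16 for *Ldb2* and 0.08 ± 0.10 for *Ssbp3*, the highest. Of the Six-protein partners, *Eya2* and *Eya3* were analysed here (of 6 listed), at -0.21 ± 0.11 and -0.16 ± 0.11. Of these, 0 genes passed an unadjusted p of 0.05. *Eya1*, also listed, was not analysed here. The study itself called it higher in the PEC-enriched isolates on these same arrays.

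Other regulators of kidney patterning covered a wider range of differences, -0.64 to 1.47. Of 24 analysed (of 28 listed), 10 were higher and 0 lower at an unadjusted p under 0.05, beside 5.77% and 4.66% of all probesets. The median was 0.19. None passed the adjusted threshold by limma, and 1 did by the regularised Bayesian test, beside 0.123% of all probesets. The gene was *Tfcp2l1*, a factor of the distal nephron, named after its values were seen. *Pax8*, a paired box factor of the nephron lineage, measured 8.31, 9.52 and 8.56 on the PEC-enriched arrays and 7.60, 7.13 and 7.25 on the PEC-deprived arrays, the highest difference of the list at 1.47 ± 0.29 (SE, adjusted p = 0.166 by limma). Its groups were clearly apart. *Gata3*, a factor of the collecting duct lineage and of mesangial cells, had the lowest, -0.64 ± 0.38, and PEC-enriched replicate 1 at 10.95 stood above the other 2 at 9.23 and 9.55. *Pax2* and *Pax8* are also parietal markers and *Wt1* is a podocyte marker. *Pax2*, *Pax8*, *Hnf4a* and *Tfcp2l1* stand in the table of genes that the study itself called, so their direction is not independent evidence. Of 32 other homeobox genes analysed (of 48 listed), 0 were higher and 3 lower, with the same shares of all probesets beside them. Their median was -0.10, from -0.36 ± 0.14 for *Tshz3* to 0.27 ± 0.16 for *Prrx1*. The difference between lists was not tested.

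Markers of most cell types measured differently in both isolates, although no marker passed the adjusted threshold by limma. The regularised Bayesian test called 2 parietal, 5 thick ascending limb and 2 distal convoluted tubule markers and none of the other lists. Over all probesets that test called 0.123%. At an unadjusted p under 0.05, 5.77% of all probesets were higher in the PEC-enriched isolates and 4.66% were lower. Higher at that level were 7 of 8 parietal markers (median 1.04), 9 of 10 proximal tubule markers (1.01) and 5 of 6 thick ascending limb markers (2.13). So were 2 of 3 distal convoluted tubule markers (2.00) and 9 of 11 collecting duct markers (0.51). Many of these markers, among them *Cldn1*, *Cdh6*, *Lad1*, *Umod* and *Slc12a1*, also stand in the table of genes that the study itself called on these same arrays. Their direction is thus not independent evidence. Of the endothelial markers 7 of 8 were lower (median -0.51), as was 1 of 5 leukocyte markers (-0.44). Mesangial and smooth muscle markers were mixed, with 3 higher and 1 lower of 5 (0.22), and of 7 podocyte markers 0 passed in either direction (0.05). The mean level of the proximal tubule markers, relative to their means over all 6 arrays, ran from 0.12 to 0.93 on the PEC-enriched arrays and from -1.02 to 0.15 on the PEC-deprived arrays. The same range for the endothelial markers was -0.46 to 0.10 against 0.18 to 0.28. The part of these cell types in the differences of the homeobox genes and their partners was not tested.

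**Figure D5:**
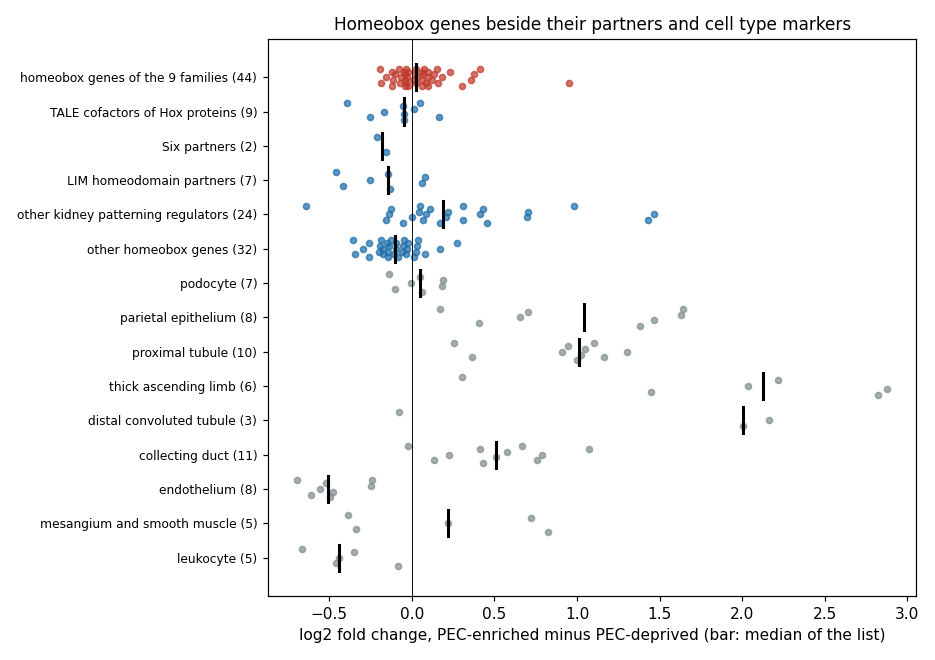
Log2 fold change, PEC-enriched minus PEC-deprived, of each gene (points) of the homeobox families, of their partner lists and of the cell type marker lists, with the number analysed in brackets and a bar at the median. The homeobox genes (median 0.03) crowd around zero apart from *Emx2* at 0.95, while tubule markers reach 2.88 and endothelial markers lie between -0.69 and -0.24.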

How the data were processed

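RNA of 3 PEC-enriched and 3 PEC-deprived rat glomerular isolates was measured on Affymetrix arrays. The deposited values are RMA values on the log2 scale, for which the authors had corrected background and brought the arrays to a common distribution. No software version and no definition of the probesets is given in the sources used here. Signal over background is unknown, and the number of arrays limits the precision. Array medians lay between 6.69 and 6.75.

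Each of the 29215 probesets was tested two-sided with limma (3.58.1, under R 4.3.3; lmFit, then eBayes) without a covariate. P-values were adjusted by Benjamini-Hochberg over all of them and read at 0.01, as in the Bayesian t-test that the methods name. Of the probesets, 15310 carry 1 gene symbol in the platform annotation of 2016, 323 several and 13582 none. Members and lists were chosen with earlier results of these data known. Array values were given for the 12 members with the smallest p, separated members outside the Hox clusters and the highest and lowest of each Hox cluster, and of each partner list the highest and lowest were named. *Hoxa11*, *Pou3f3*, *Hoxb7*, *Pbx3*, *Ldb2* and *Tfcp2l1* were named after their values were seen, for their role or value. Alternatives were a replicate block, an intensity trend, a regularised Bayesian t-test (prior weight 10, window of 101 probesets), array weights, probesets above the median level or with 1 symbol, cyclic loess, median centring, a threshold of 0.05, and each array left out. The tests were checked on simulated data. Figures were drawn with matplotlib 3.10.9.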

Additional observations from a re-analysis of the deposited data

How the results depend on the processing

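No member was called by limma under any alternative, and no setting with all arrays called a probeset except the regularised Bayesian t-test, which called 36, none of them a member. Without PEC-deprived replicate 1, 1 probeset was called, and the range over arrays left out was 0 to 1. The count of members with an unadjusted p under 0.05 was 2 to 4 under the alternatives with all arrays, beside 9.56% to 14.8% of the probesets tested. It was 2 to 5 when an array was left out, beside 6.52% to 12.4%, with the 5 without PEC-enriched replicate 3. The count of separated members was 3 under median centring and under cyclic loess, beside 14.8% and 15.8% of all probesets. Among the 17 members above the median level it was 0, beside 19.0% of the probesets at that level. It was 6 to 12 when an array was left out, where fewer arrays separate more easily, beside 21.9% to 28.1% of all probesets. Without PEC-enriched replicate 2 it was 11, and without PEC-enriched replicate 3 it was 12. Without PEC-deprived replicate 1 it was 7, and without PEC-deprived replicate 2 it was 9. The median difference of the members stayed between -0.02 and 0.07. *Hoxb8* ran from -0.19 to 0.14 over arrays left out, positive without PEC-enriched replicate 2 (0.14) and without PEC-deprived replicate 3 (0.055), and *Hoxc12* ran from -0.20 to 0.012, positive without PEC-deprived replicate 3. In all, 20 of the 44 differences changed sign when some array was left out. Averaging the probesets of a gene was not run, since each member has 1 probeset.

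The replicate numbers are shared by both groups, and whether they mark shared animals is unknown. The array values themselves correlated at 0.982 to 0.994 over all pairs of arrays. To compare replicates, the mean of its group was subtracted from each value. These deviations correlated between same-numbered arrays at -0.03, 0.05 and 0.10 over all probesets and 0.217, 0.106 and 0.475 over the members. Over the members, PEC-enriched replicate 1 correlated best with PEC-deprived replicate 2 (0.484), so the numbers were not taken as pairs. With the replicate block, 4 members had an unadjusted p under 0.05 (*Emx2*, *Lhx1*, *Hoxc9* and *Hoxc5*), beside 10.5% of all probesets, and 0 were called.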
